A study of Mus musculus with 2 samples.

Results

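The genes described here are the interferon response genes of the mouse: the interferon receptors, Stat and Irf factors, RNA sensors and interferon-stimulated genes on a list of 47 symbols. The list was chosen by symbol with earlier results of these same libraries known, so every WT and ESAM-null level below is a description. Of the 47 symbols, 46 had a value among the 23284 gene symbols measured, and Ifi27 had none. All 46 reached 1 FPKM (fragments per kilobase of transcript, scaled for sequencing depth) in the WT library, and 38 did so in the ESAM-null library. How values were scaled between the libraries was not given. The remaining 8 passed the minimum of 1 FPKM through WT alone, and so had to be lower in ESAM-null.

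The study asked which genes differ in hematopoietic stem cells (HSCs) of the fetal liver (FL) when ESAM, an adhesion molecule of endothelial cells and HSCs, is missing. LSK CD48- cells (lineage-negative, Sca-1-positive and c-Kit-positive cells without CD48) were sorted from FL at E14.5 of WT mice and of conventional ESAM-knockout mice, in which the gene is lost in every cell. RNA-seq was run on 1 library of each genotype, and the number of fetuses behind a library, their strain and their sex are not given in these sources. The labels also describe a culture of such sorted cells in methylcellulose medium, and whether RNA was taken before or after it was not stated. The targeted gene Esam had 117.6 FPKM with ESAM intact and 12.1 FPKM in the ESAM-null library, a 9.69-fold difference with a 95% counting interval from 8.39 to 11.3-fold.

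Interferons are secreted proteins that bind receptors made of IFNAR1 with IFNAR2 (type I) or IFNGR1 with IFNGR2 (type II). Type I receptors activate Janus kinases, which phosphorylate STAT2 among other targets. STAT2 and IRF9 are parts of ISGF3, the complex that binds interferon-stimulated response elements and switches on antiviral genes, while type II signaling acts through gamma-activated sites. Stem cells are known to hold a basal set of interferon-stimulated genes without infection, and interferon signaling is known to act on the emergence and cycling of HSCs in the embryo and adult.

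With 1 library of each genotype, no test was possible and differences could not be set against the spread between mice. Precision was described by approximate reads, recovered from the FPKM values and summing over all genes to about 9877000 for WT and 12033000 for ESAM-null, and by exact 95% counting intervals of the ratio. These cover counting error only, and amplified copies of one molecule are not independent. A gene was counted as lower at an ESAM-null to WT ratio of 0.5 or less, and as higher at 2 or more. In bulk cells, fewer cells of a type and less RNA per cell cannot be told apart.

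Of the 46 interferon response genes, ESAM-null levels were lower by 2-fold or more for 15 (32.6%) and higher by that much for 0, and 31 lay between. Of the 31, the counting interval of the ratio lay below 1 for 13 and held 1 for 12. It lay above 1 for 6 (Ifitm1, Ifitm2, Ifitm3, Bst2, Cmpk2 and Ifi35). Intervals were not counted in this way over all genes, so no background share stands beside these counts. At the 2-fold threshold, the background over all 12066 genes at 1 FPKM or more in at least 1 library was 12.8% lower and 7.42% higher. The median log2 ratio was -0.43 over the 43 members above 0 in both libraries, and -0.50 with the 3 listed at 0 set at a bound of 3 reads, beside 0.01 over all genes. The ratio was below 1 for 36 of the 46 and for 6034 of all 12066 genes. Within the list the spread was wide, from a log2 ratio of -5.33 for Ifih1 to 0.64 for Ifitm1.

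**Figure D1:**
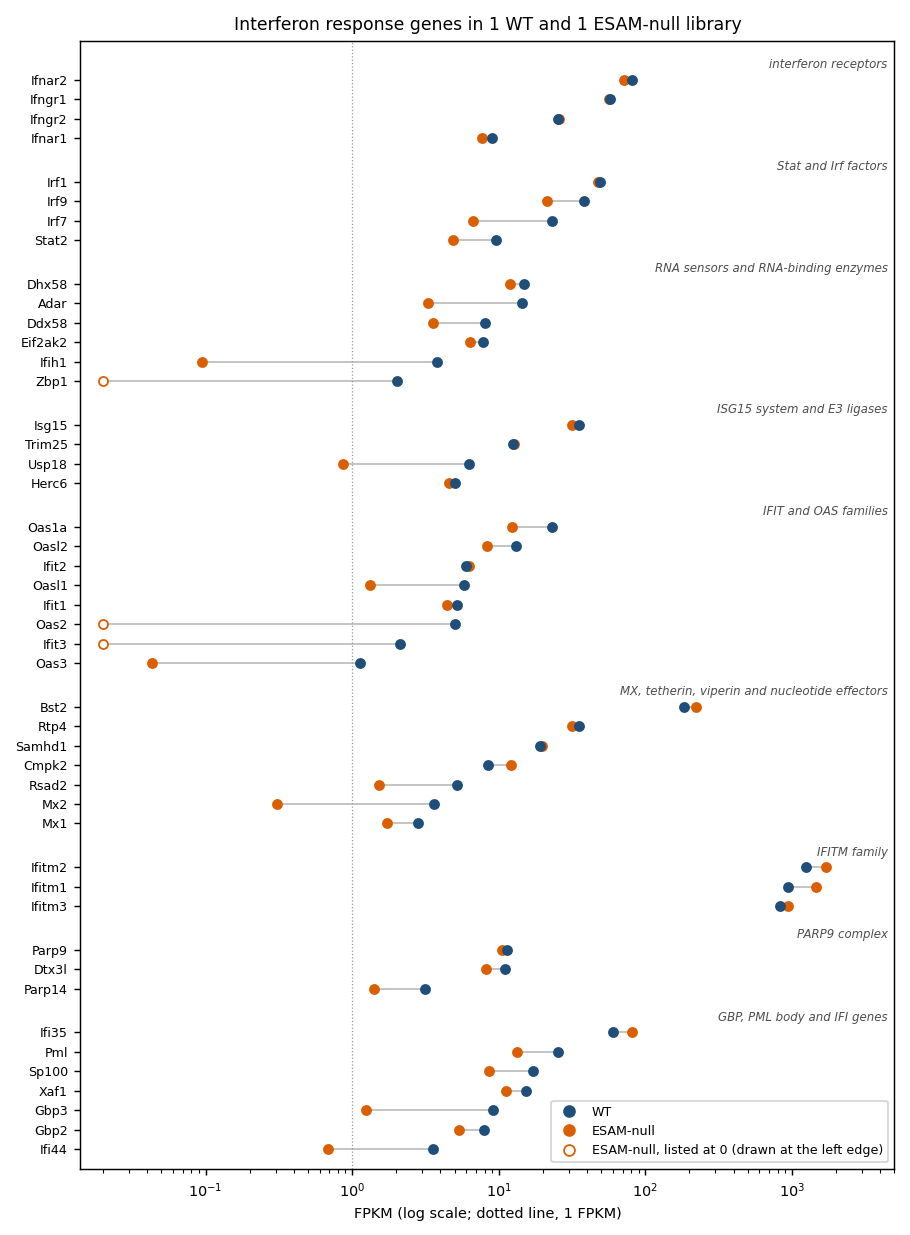
FPKM (log scale, 0 drawn at the edge) of each of the 46 interferon response genes in the 1 WT and the 1 ESAM-null library, grouped by role. The IFITM genes and Bst2 lie farthest to the right in both libraries, while Zbp1, Ifit3 and Oas2 drop to 0 in ESAM-null.

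The 15 lower genes were Irf7, Ifih1, Ddx58, Zbp1, Adar, Usp18, Ifit3, Oas2, Oas3, Oasl1, Mx2, Rsad2, Parp14, Gbp3 and Ifi44. Their WT levels were modest, from 1.13 FPKM (Oas3) to 23.1 FPKM (Irf7), and rested on about 31 to 761 reads each. Of the 15, 11 were lower by 4-fold or more or listed at 0. For 13 of them the whole counting interval lay beyond 2-fold, the exceptions being Ddx58 and Parp14, which were between 2-fold and 3-fold lower. Just outside the threshold were Stat2 at a ratio of 0.502 and Sp100 at 0.504, and just inside it was Parp14 at 0.447.

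The DNA around the starts of these genes was searched for the 2 kinds of element named above. Many symbols were chosen as interferon-stimulated genes, so a high share of matches is not independent of that choice. In the RefSeq promoter table (GRCm38.p6, 250 bases before to 50 bases after the transcript start), 37 of the 46 were matched. Those not matched were Dhx58, Zbp1, Usp18, Oas2, Mx1, Mx2, Rtp4, Parp9 and Parp14. The core of the interferon-stimulated response element was searched as GAAANNGAAA on both strands. Of the 37, 15 held it (40.5%), against 3.99% of all 27025 symbols of the table. Of the further interferon pathway genes described below, 24 of the 58 matched at 1 FPKM or more held it (41.4%). Among the members it was in 6 of the 10 matched lower genes (Ifih1, Ddx58, Ifit3, Oas3, Rsad2, Gbp3) and in 9 of the 27 others. The other 9 were Stat2, Eif2ak2, Isg15, Ifit1, Oas1a, Bst2, Ifitm2, Ifitm3 and Gbp2.

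Windows of 80 bases around the match are given for 4 lower genes and for 3 near level, so that the elements of both can be read side by side. They run 5′ to 3′ on the strand of the gene, and capitals mark the match, which reads as the complement where it lies on the opposite strand.
Ifit3 (chr19:34583355-34583434, plus strand): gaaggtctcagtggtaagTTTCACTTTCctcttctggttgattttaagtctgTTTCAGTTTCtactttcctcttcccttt
Oas3 (chr5:120777690-120777769, minus strand): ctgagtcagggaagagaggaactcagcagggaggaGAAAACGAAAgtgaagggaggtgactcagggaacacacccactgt
Rsad2 (chr12:26456528-26456607, minus strand): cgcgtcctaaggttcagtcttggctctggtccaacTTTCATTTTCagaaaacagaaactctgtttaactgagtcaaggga
Gbp3 (chr3:142559967-142560046, plus strand): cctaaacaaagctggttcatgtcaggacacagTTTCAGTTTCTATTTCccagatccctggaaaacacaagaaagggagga
Isg15 (chr4:156200846-156200925, minus strand): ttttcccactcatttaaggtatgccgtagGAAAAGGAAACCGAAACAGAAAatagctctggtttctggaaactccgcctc
Ifit1 (chr19:34640759-34640838, plus strand): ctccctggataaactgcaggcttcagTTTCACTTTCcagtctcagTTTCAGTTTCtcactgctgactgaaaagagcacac
Bst2 (chr8:71537555-71537634, minus strand): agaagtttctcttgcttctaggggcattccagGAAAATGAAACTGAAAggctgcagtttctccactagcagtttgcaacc
Ifit3 held a pair of matches, 156 and 122 bases before the start, and Ifit1 held a pair as well, 104 and 85 bases before it. Isg15 held 3 overlapping matches between 78 and 66 bases before the start. In Ifih1 and Ddx58 the match lay after the start, by 32 and 2 bases. A match was thus present in front of genes that were far lower, such as Ifit3, and of genes that were not, such as Ifit1 and Bst2.

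The gamma-activated site was searched as TTCNNNGAA, which reads the same on both strands, and a match could overlap one of the other word. It was in 11 of the 37 (29.7%), against 9.55% of all symbols of the table. Of the 10 matched lower genes 1 held it, and of the 27 others 10 did. A match to letters says nothing about whether a factor bound there in these cells.

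The receptors were near level in both libraries, with 0 of 4 past 2-fold and a median log2 ratio of -0.10. Ifnar1, 1 chain of the type I receptor, had 9.02 FPKM in WT against 7.66 in ESAM-null, a ratio whose interval held 1 (0.998 to 1.38-fold lower). Its partner Ifnar2 was far more abundant, with 81.6 FPKM against 72.0, and was 1.13-fold lower (1.07 to 1.20). The type II chains barely moved: Ifngr1 had 57.1 FPKM against 56.6, and Ifngr2 had 25.4 against 25.7. The transcripts for receiving both kinds of interferon were therefore detected at similar levels in both libraries.

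Among the Stat and Irf factors 1 of 4 was past the threshold, and the median log2 ratio was -0.92. Irf7, the factor that amplifies type I interferon production and is itself interferon-induced, stood at 23.1 FPKM in WT and at 6.71 in ESAM-null, 3.45-fold lower (2.79 to 4.28). The DNA-binding and activating parts of ISGF3 were both lower by less. Stat2 had 9.65 FPKM against 4.84, which is 1.99-fold lower (1.68 to 2.38) and at the edge of the threshold, and Irf9 had 38.4 against 21.5, 1.79-fold lower (1.60 to 2.01). Irf1, a factor induced by both kinds of interferon, was level at 49.1 against 47.5 FPKM (0.941 to 1.14-fold lower).

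RNA sensors and RNA-binding enzymes held the highest share of lower genes, 4 of 6, with a median log2 ratio of -1.17 over those above 0. Ifih1 encodes MDA5, the cytoplasmic sensor of long double-stranded RNA. It stood at 3.79 FPKM in WT, about 187 reads, and at 0.0943 in ESAM-null, about 5 reads, which is 40.2-fold lower (17.1 to 126). Ddx58 encodes RIG-I, the sensor of RNA with triphosphate ends, and had 8.08 FPKM against 3.58, 2.26-fold lower (1.82 to 2.79). Their regulator Dhx58 (LGP2) had 14.9 against 11.9 FPKM, 1.24-fold lower (1.05 to 1.47), so the 3 sensors of one family differed from each other beyond their counting intervals.

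Adar encodes the enzyme that edits adenosine to inosine in double-stranded RNA and so hides self RNA from MDA5. It was the most abundant lower gene after Irf7, with 14.3 FPKM in WT against 3.29 in ESAM-null, 4.35-fold lower (3.70 to 5.12). Zbp1, a sensor of Z-form nucleic acid, had about 34 reads in WT (2.01 FPKM), while the ESAM-null value was 0, which allows a ratio of up to 0.106. Eif2ak2 encodes PKR, the kinase that halts translation on double-stranded RNA, and was nearer level at 7.85 against 6.41 FPKM (1.03 to 1.45-fold lower). Editing enzyme and sensor transcripts were thus both lower, while the kinase of the same ligand was not past the threshold.

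**Figure D2:**
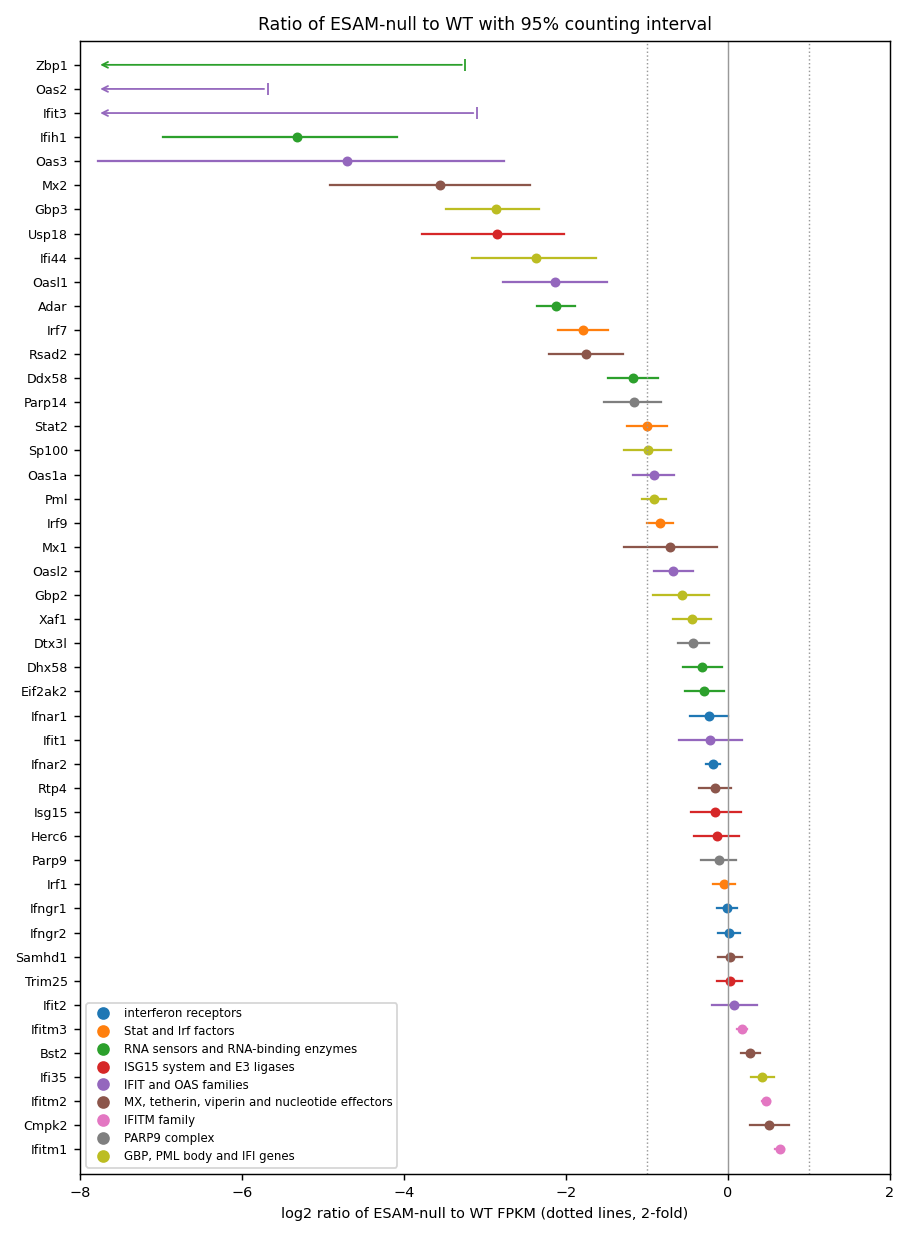
Log2 ratio (ESAM-null over WT) of the FPKM of each interferon response gene, sorted by ratio and colored by role, with 95% counting intervals. For the 3 genes listed at 0 in ESAM-null, the upper bound only is drawn. Dotted lines mark 2-fold, and 15 genes lie to the left of the left line. RNA sensors and the IFIT and OAS families hold 4 each of these.

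Of the ISG15 system and E3 ligases 1 of 4 was lower. Isg15, the ubiquitin-like protein that is attached to targets after interferon, was level at 35.0 against 31.5 FPKM, and its interval held 1 (0.897 to 1.37-fold lower). Usp18 removes ISG15 from proteins and also blocks IFNAR2 signaling. It had 6.31 FPKM in WT against 0.873 in ESAM-null, 7.23-fold lower (4.08 to 13.7), so the intervals of the modifier and its protease did not overlap. Both ligases were level: Herc6, the ISG15 ligase of the mouse, had 5.06 against 4.59 FPKM, and Trim25, which activates RIG-I, had 12.5 against 12.7.

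The IFIT and OAS families were split, with 4 of 8 lower. IFIT proteins bind viral RNA lacking the proper cap. Ifit1 had 5.19 FPKM against 4.45, and Ifit2 had 5.95 in WT and 6.28 in ESAM-null, both with intervals that held 1. Ifit3, which lies between them, was listed at 0 in ESAM-null after about 31 reads in WT (2.13 FPKM), which allows a ratio of up to 0.117. Ifit3 has a close copy, Ifit3b, with 0.117 FPKM in WT and 0 in ESAM-null, and how reads shared by such copies were counted is not stated in the sources read.

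OAS enzymes make the second messenger that activates RNase L when double-stranded RNA is present. Oas2 had 5.01 FPKM or about 177 reads in WT and a listed value of 0 in ESAM-null, a ratio of at most 0.0194 by its counting interval. Oas3 had 1.13 FPKM against 0.0432, about 48 against 2 reads, 26.1-fold lower (6.82 to 221). Oas1a, the most abundant of the family, had 23.2 FPKM against 12.3, 1.89-fold lower (1.59 to 2.25). Near-identical copies of Oas1a exist in the mouse, which makes its level uncertain. The enzymatically inactive relative Oasl1, a translational repressor of Irf7, had 5.81 FPKM against 1.32, 4.39-fold lower (2.82 to 6.88), and Oasl2 had 13.2 against 8.29, 1.59-fold lower (1.35 to 1.88). All 5 of these genes had ratios below 1, over a range from 1.59-fold lower to no detected reads.

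Among the MX, tetherin, viperin and nucleotide effectors 2 of 7 were lower. The GTPases that trap viral nucleocapsids differed: Mx2 had 3.64 FPKM against 0.308, 11.8-fold lower (5.44 to 30.3), whereas Mx1 had 2.83 against 1.72, 1.64-fold lower (1.09 to 2.44). Rsad2 encodes viperin, which makes a chain-terminating nucleotide, and had 5.16 FPKM against 1.53, 3.38-fold lower (2.47 to 4.61). Its neighbor Cmpk2, a mitochondrial nucleotide kinase that supplies viperin, went the other way, with 8.50 FPKM in WT and 12.1 in ESAM-null, a ratio of 1.42 (1.21 to 1.68). The remaining members were Samhd1, a dNTP hydrolase, at 19.3 against 19.6 FPKM, and Rtp4, a chaperone of receptors that also binds viral replication proteins, at 35.1 against 31.4.

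The most abundant members were not lower. Bst2 encodes tetherin, which holds budding virions on the cell surface, and had 183.7 FPKM in WT and 222.7 in ESAM-null, a ratio of 1.21 (1.12 to 1.32) that turned when both FPKM totals were set equal. The IFITM proteins, which block virus fusion at membranes and are known to be high in stem cells at rest, were the highest of the list. Ifitm1 had 939.7 FPKM in WT and 1464 in ESAM-null, a ratio of 1.56 (1.502 to 1.62), Ifitm2 stood at 1239 and 1719 (1.34 to 1.44), and Ifitm3 at 830.7 and 937.6 (1.08 to 1.18), of which only Ifitm3 turned with equal totals. The 3 IFITM genes made up 3010 of 3897 FPKM summed over the list in WT and 4120 of 4901 in ESAM-null. On the deposited scale a sum over the list was therefore higher in ESAM-null. The 38 members other than receptors, IFITM genes and Bst2 summed to 397 in ESAM-null against 530 in WT. The genes left out of that sum were near level or higher in these same data, so its fall depends in part on that choice. With only the IFITM genes left out, the sums were 781 in ESAM-null and 887 in WT.

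Of Parp9, its partner Dtx3l and Parp14, 1 of 3 was lower, namely Parp14. The complex of PARP9 with DTX3L ADP-ribosylates and ubiquitinates proteins in the antiviral response. Parp14, a large ADP-ribosyltransferase, had 3.16 FPKM against 1.41, 2.24-fold lower (1.77 to 2.88). Parp9 was level at 11.4 against 10.6, and its ubiquitin ligase partner Dtx3l had 10.98 against 8.17, 1.34-fold lower (1.18 to 1.53).

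Of the guanylate-binding proteins, PML body proteins and IFI genes 2 of 7 were lower. Gbp3, a GTPase that attacks pathogen vacuoles, had 9.07 FPKM against 1.24, 7.30-fold lower (5.05 to 11.1), while its neighbor Gbp2 had 7.92 against 5.33, 1.49-fold lower (1.18 to 1.89). Ifi44, an interferon-induced cytoplasmic protein, had 3.53 against 0.686, 5.15-fold lower (3.11 to 8.92). Pml and Sp100, partners in nuclear bodies, moved by similar amounts just short of the threshold: Pml had 25.2 against 13.4 FPKM, 1.88-fold lower (1.70 to 2.09), and Sp100 had 17.1 against 8.59, 1.99-fold lower (1.63 to 2.43). Ifi35 was higher, with 60.4 FPKM in WT and 81.2 in ESAM-null, a ratio of 1.34 (1.21 to 1.49). Xaf1, a pro-apoptotic partner of XIAP, had 15.3 against 11.3, 1.35-fold lower (1.15 to 1.60).

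Several members lie side by side in the genome. Of 15 pairs of members whose starts lie within 100000 bases (GRCm38), only Oas2 and Oas3, 27808 bases apart on chromosome 5, were both lower. In 8 pairs 1 of the members was lower, and in 6 neither was. The counting intervals of the ratio, which cover counting error only, did not overlap in 11 of the 15. Several members stand in more than 1 pair. No share over all neighboring genes was counted, so these counts describe the listed pairs alone. Pairs with 1 lower gene lay on chromosome 19, where Ifit3 (34583531 to 34588731) lies between Ifit2 (34550694 to 34576419) and Ifit1 (34640871 to 34650009). On chromosome 12, Rsad2 and Cmpk2 start 12752 bases apart. Mx1 with Mx2, Gbp3 with Gbp2, Oasl2 with Oasl1 and Parp14 with Parp9 were further pairs in which 1 gene was past the threshold and its neighbor was not.

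**Figure D3:**
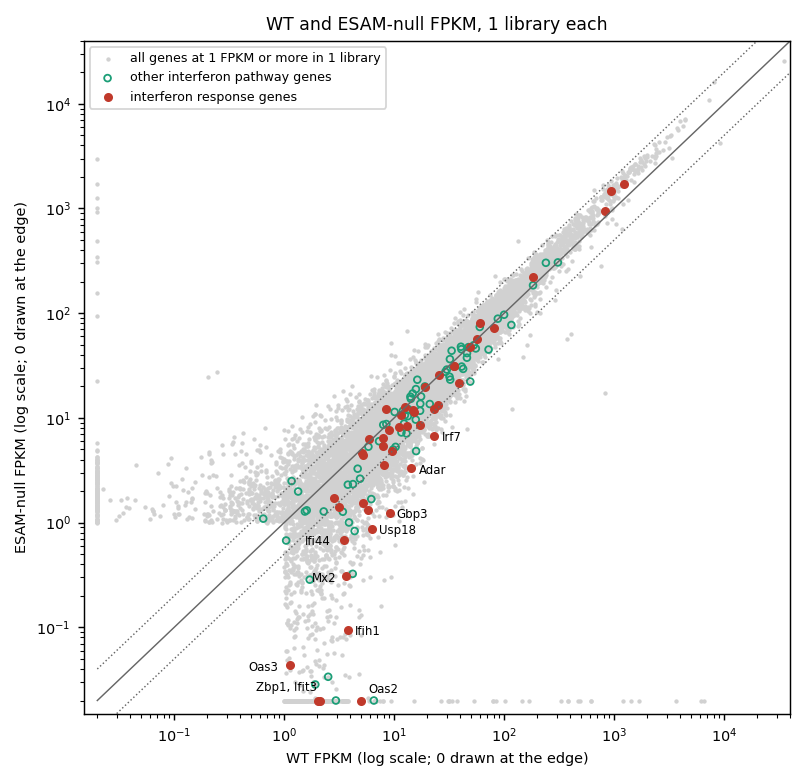
FPKM in ESAM-null against WT on log axes (0 drawn at the edge) for all 12066 genes at 1 FPKM or more in at least 1 library, with 46 interferon response genes and the other interferon pathway genes marked. The solid line is equality and the dotted lines are 2-fold, and the members below the lower line lie at WT levels between 1.13 and 23.1 FPKM.

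The share of lower genes moved with the level in all genes, so the members were set beside genes of like mean FPKM. Between 1 and 3 FPKM, 7 of 8 members were lower against 538 of all 1796 genes. Of these 7, Ifih1, Zbp1, Ifit3, Oas2, Mx2 and Ifi44 passed the minimum of 1 FPKM through WT alone, so they had to be lower. Between 3 and 10 FPKM, 6 of 14 were lower (42.9%) against 16.5% of 2898 genes. Between 10 and 30 FPKM, 1 of 13 was lower (7.69%) against 5.30% of 3134 genes, and above that 0 of 10 were lower. The members' share thus stood above that of all genes below 10 FPKM, and close to it above that level. The mean itself includes the ESAM-null value, and the lowest ranges hold most members that passed through WT alone. With 1 FPKM required in both libraries, 7 of 38 members were lower (18.4%) against 7.13% of all genes.

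Ratios also moved with transcript length in these libraries. The median log2 ratio of all genes was 0.35 for transcripts under 1500 bases and -0.23 for those of 4000 bases or more. Of the 6 members under 1500 bases 0 were lower, and their median was 0.35 as well, with Ifitm1, Ifitm2, Ifitm3, Bst2, Isg15 and Ifi35 making up the class. Between 1500 and 2500 bases 6 of 13 members were lower (46.2%, against 9.25% of all genes). Between 2500 and 4000 bases 5 of 17 were (29.4%, against 13.1%), and at 4000 bases or more 4 of 10 were (against 16.4%). Among genes of 1 to 10 FPKM with transcripts of 2500 bases or more, 8 of 17 members were lower (47.1%) against 22.0% of 3294 genes. These shares include members that passed the minimum of 1 FPKM through WT alone and so had to be lower. They were Zbp1, Usp18, Ifit3 and Mx2 between 1500 and 2500 bases, and Ifih1, Oas2, Oas3 and Ifi44 among longer transcripts. Of these, Ifih1, Oas2 and Ifi44 are also in the class of 1 to 10 FPKM. The part of level and length in the single ratios was not tested.

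**Figure D4:**
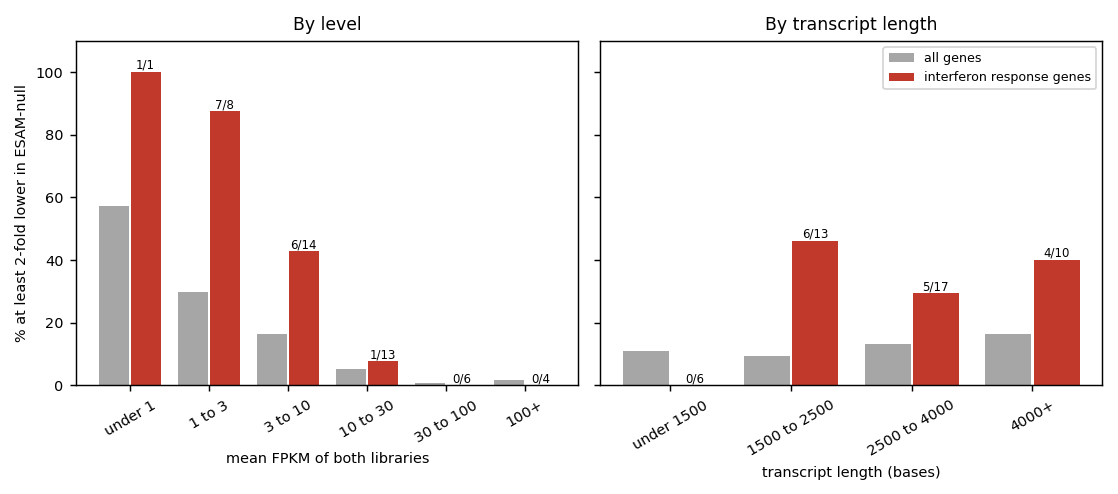
Percent of genes at least 2-fold lower in ESAM-null by mean FPKM and by transcript length, for the 46 interferon response genes and for all genes of the same class, with counts over the bars. The members stand above the background between 1 and 10 FPKM, and 0 of the 6 members under 1500 bases were lower. In that FPKM range, Ifih1, Zbp1, Ifit3, Oas2, Mx2, Ifi44 and Usp18 passed the minimum of 1 FPKM through WT alone. They therefore had to be lower, and the mean FPKM itself includes the ESAM-null value.

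The rest of the pathway was described from a list of 97 further interferon pathway genes, chosen like the members with earlier results known. Of these 92 had a value and 71 reached 1 FPKM, with 12 lower (16.9%, beside 12.8% of all genes), 1 higher and a median log2 ratio of -0.28. All 8 interferon ligand genes measured, Ifnb1, Ifng, Ifnk, Ifne and 4 Ifna genes among them, were listed at 0 in both libraries. At this depth 3 reads, the floor chosen here, correspond to 0.318 to 0.888 FPKM for these genes in WT and 0.293 to 0.819 in ESAM-null. A listed value of 0 therefore does not exclude levels below these.

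Of the Janus kinases and other Stat and Irf factors 0 of 10 were past 2-fold. Jak1 had 52.9 against 49.4 FPKM, Jak2 had 14.04 against 15.9, and Tyk2 had 12.9 against 7.10. Irf3, which starts interferon transcription after sensing, had 60.0 FPKM in WT and 73.9 in ESAM-null, and Irf2, a repressor of Irf1 targets, had 45.9 against 41.6. Most transcripts between receptor and nucleus were thus close in both libraries, with Tyk2, Stat2 and Irf9 lower by less than 2-fold.

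Among the feedback inhibitors 1 of 4 was lower: Socs1, an inhibitor of Janus kinases, had 15.8 FPKM against 4.82, 3.28-fold lower (2.69 to 4.02). The phosphatase Ptpn6 (SHP-1) was level at 183 against 185 FPKM. Of 11 sensing and induction genes 2 were lower, namely Ticam1, the TLR3 adaptor TRIF (3.88 against 1.003 FPKM, 3.87-fold lower, 2.55 to 6.18), and Nlrx1, a mitochondrial NLR protein, at 2.95 FPKM in WT and at 0 without ESAM. The abundant adaptors Tmem173 (STING) and Myd88 were not past 2-fold, at 45.9 against 37.6 and 42.3 against 29.4 FPKM. Of 46 further interferon-stimulated genes 9 were lower and 1 was higher. They included Cxcl10, a chemokine for T cells, with about 55 reads in WT (6.54 FPKM) and a listed value of 0 in ESAM-null. Irgm2, an immunity-related GTPase, was 12.95-fold lower (6.82 to 25.9) at 4.20 against 0.324 FPKM, and Parp11 was 5.26-fold lower (3.52 to 8.05) at 4.37 against 0.831. Ifi27l1 had 49.2 against 22.2 FPKM (2.21-fold lower), Oas1b had 6.19 against 1.68 (3.69-fold lower), and the GTPase Tgtp2 had 3.41 against 1.27 (2.69-fold lower). At under 3 FPKM in WT, Ddx60 had 2.51 against 0.0337 FPKM, Gbp9 had 1.92 against 0.0284, and Iigp1 had 1.71 against 0.285. These passed the minimum of 1 FPKM through WT alone, so they had to be lower. The 1 higher gene was Gbp5, at 1.17 against 2.49 FPKM. The abundant Lgals9 and Ly6e were not lower, at 308 against 306 and 239 against 303 FPKM.

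Other cell types carry many of these transcripts, so their markers were read beside the members. The markers of the sorted LSK cells were near level, with 0 of 7 past 2-fold and summed levels of 661 FPKM in WT and 666 in ESAM-null. Plasmacytoid dendritic cells, which make much of the type I interferon of the body and are rich in Irf7, had summed markers of 29.2 against 18.8 FPKM with 2 lower and 1 higher of 5, while Siglech was at 0 against 0.134 and Klk1 at 0 in both. Macrophage markers summed to 29.7 against 30.6 FPKM with 3 lower of 7. Of these markers Cd68 (14.2 against 20.0 FPKM), Csf1r (2.17 against 3.59) and C1qc (3.38 against 5.07) had more in ESAM-null, C1qb had less (3.85 against 1.94), C1qa, Cd5l and Marco were listed at 0 there after 2.91, 1.10 and 1.07 FPKM in WT, and Timd4 was at 0 in both. Neutrophil and monocyte markers summed to 80.4 against 75.5 (1 lower of 5, Elane at 0 in both), T and NK cell markers to 4.20 against 5.62 (1 lower and 1 higher of 3, Cd3e and Ncr1 at 0 in both), and B cell markers to 75.8 against 85.0 (0 of 3, Ms4a1 and Pax5 at 0 in both). Hepatocyte markers summed to 40.0 against 37.1 (1 lower and 1 higher of 4) and endothelial ones to 34.9 against 33.0 (1 higher of 4). Maturing erythroid markers showed the widest gap, 405 FPKM in WT against 77.0 in ESAM-null with 4 lower of 7. The part of these cell types in the interferon response genes was not tested.

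The scale of the libraries bore on the members that were higher. The FPKM totals were 751784 in WT and 911736 in ESAM-null, and with both set to 1000000 every log2 ratio fell by 0.28, which put the median of all genes at -0.27. On that scale 20 members were lower, beside 18.3% of all genes, and 0 were higher. Of the 10 members above their WT level 4 kept that direction, with log2 ratios of 0.36 for Ifitm1, 0.19 for Ifitm2, 0.23 for Cmpk2 and 0.15 for Ifi35. The direction turned for the other 6, which were Ifngr2, Trim25, Samhd1, Ifit2, Bst2 and Ifitm3.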

How the data were processed

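RNA-seq compared 1 WT and 1 ESAM-null library of E14.5 FL LSK CD48- cells. Per the labels, cDNA was made with SMART-Seq v4 and sheared to 200 to 500 bp for 75 bp single-end reads. Cuffnorm 2.2.1, SAMtools 0.1.19, TopHat2 2.0.13 with Bowtie2 2.2.3, and the build mm10 stand in the submitters' processing notes. Annotation, scaling between libraries and the treatment of reads with several hits were not given in the sources used here. Per gene and library, the authors deposited 1 FPKM value, with no counts.

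The members and all gene lists were chosen with earlier results of these data known. Levels were compared as the plain FPKM ratio of ESAM-null to WT, with no pseudocount, over genes at 1 FPKM or more in at least 1 library, and 2-fold was the threshold. With 1 library per genotype there was no test. Approximate reads were found from the steps between low values, using GENCODE M21 (GRCm38) transcript lengths, matched for 98.1% of genes, and fragments of 200 bp (SD 80), which gave scales of 9370000 reads for WT and 10160000 for ESAM-null. These placed 68.2% of 805 low WT values and 71.6% of 479 low ESAM-null values within 0.05 of a whole read. Ratio intervals were exact Clopper-Pearson 95% intervals of those reads, for counting error only, and 3 reads were taken as the floor. The steps were tested on simulated data. Coordinates are GRCm38, and promoters are from the RefSeq GRCm38.p6 table (32851 promoters). Named genes were all receptors, all Stat and Irf factors, every member past 2-fold or listed at 0, the 5 most abundant, and up to 3 others per role, to which the rest were added so that each of the 46 is accounted for. Of the other pathway genes, those past 2-fold at 3 FPKM or more, the Janus kinases and up to 2 abundant genes per role were named. Nlrx1, Gbp5, Ddx60, Gbp9 and Iigp1 were added with their values seen. Alternatives were other filters, pseudocounts, scalings and fold thresholds, and leaving out single list members. Python 3.11.15, pandas 2.3.3, numpy 2.4.6, scipy 1.17.1 and matplotlib 3.10.9 were used.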

Additional observations from a re-analysis of the deposited data

How the results depend on the processing

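No paired analysis was possible because there was 1 library of each genotype and no test. The count of 15 lower members was 8 of 38 with a minimum of 5 FPKM in 1 library (21.1%, beside 6.99% of all genes under that filter) and 7 of 38 with a minimum of 1 FPKM in both (18.4% beside 7.13%). It was 13 with a pseudocount of 1 FPKM (28.3% beside 8.83%), 22 at 1.5-fold (47.8% beside 21.8%), 13 at 3-fold (28.3% beside 7.27%) and 20 with both totals at 1000000. The count of 0 higher members became 1 at 1.5-fold (Ifitm1). The members' median log2 ratio of -0.43 became -0.24 at 5 FPKM, -0.26 with 1 FPKM in both and -0.70 with both totals at 1000000.

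For the other pathway genes, the 12 lower became 4 of 52 at 5 FPKM (7.69%), 5 of 62 with 1 FPKM in both (8.06%) and 25 of 71 at 1.5-fold (35.2%). The 1 higher (Gbp5) became 0 at 5 FPKM, 0 with a pseudocount of 1 FPKM, 0 at 3-fold, 0 with both totals at 1000000 and 2 at 1.5-fold. Their median of -0.28 became -0.13 at 5 FPKM and -0.56 with both totals at 1000000. Leaving out 1 list member at a time gave 14 to 15 lower members, a members' median from -0.43 to -0.37, and 0 to 1 higher pathway genes.

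Of 258 ratios of the 43 members above 0 in both libraries, under other scalings and pseudocounts, 220 stayed within their counting interval, 30 left it, and 8 changed direction. With both totals at 1000000 the log2 ratio became -0.26 for Ifngr2, -0.25 for Trim25, -0.25 for Samhd1, -0.20 for Ifit2, -0.10 for Ifitm3 and -0.000704 for Bst2. Ifngr2 also turned with the median ratio scaling (-0.0054) and the trimmed mean scaling (-0.000742). With 1 library per genotype, no value carries the spread between mice, and below about 1 FPKM a value rests on few reads.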
